A study of Mus musculus with 2 samples.

Results

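Protein phosphatase 1 (PP1) and calcineurin remove phosphate from serine and threonine residues, and both have subunits that are known from the testis and sperm. The 9 subunits described here were chosen by symbol from the 51868 rows of the gene table, and each symbol matched 1 row. They are Ppp1cc and Ppp1ca, catalytic subunits of PP1; Ppp1r27, Ppp1r36 and Ppp1r42, regulatory subunits of PP1; Ppp3ca and Ppp3cc, catalytic (A) subunits of calcineurin; and Ppp3r1 and Ppp3r2, its regulatory (B) subunits. The cells came from the whole testes of 2 wildtype C57Bl/6J Crl mice, 8 weeks old and littermates, with no treatment. Single cells were captured in droplets, and transcripts were counted from their 3' ends by unique molecular identifiers (UMIs). There were 1237 cells with 27450497 UMIs from mouse 1 and 1315 cells with 30302332 UMIs from mouse 2.

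PP1 is a catalytic subunit that binds one of many regulatory subunits, which direct it to its substrates. Ppp1cc gives rise by splicing to a widespread and a testis-enriched form of the catalytic subunit, and male mice that lack the gene are sterile. Calcineurin is a pair of an A and a B subunit that is switched on by calcium and calmodulin; the pair of Ppp3cc and Ppp3r2 is the form known from sperm, where it is needed for the bending of the midpiece, while Ppp3ca, Ppp3cb and Ppp3r1 make up the widespread forms. Counts from 3' ends do not separate the splice forms of a gene, so each value below is for the gene as a whole. A molecule is counted once whatever its length, so levels were compared between genes as CPM, the UMIs of a gene per 1000000 UMIs of a group, with no length correction.

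All 9 genes are annotated as protein-coding in GENCODE M21 on GRCm38. The PP1 genes lie on 5 chromosomes: Ppp1cc at chr5:122158278-122175273 (plus strand), Ppp1ca at chr19:4192065-4195420 (plus), Ppp1r27 at chr11:120549979-120551132 (minus), Ppp1r36 at chr12:76417538-76439492 (plus) and Ppp1r42 at chr1:9968624-10009136 (minus). The calcineurin genes are Ppp3ca at chr3:136670124-136937727 (plus), Ppp3cc at chr14:70217865-70289471 (minus), Ppp3r1 at chr11:17159263-17200375 (plus) and Ppp3r2 at chr4:49678747-49682024 (minus). Ppp3r2 lies inside Grin3a on the same strand and shares no exon bases with it, and Grin3a had 6 UMIs in all cells.

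Reads from 2 of the 9 genes could also belong elsewhere. Of the 403 windows of 98 bases, the read length, in the last 500 bases of the longest coding transcript of Ppp1cc, 194 were also found in transcripts of Ppp1ccb or Gm9231, so the Ppp1cc counts are uncertain to the extent that reads were split or dropped there. Ppp3r1 shares 462 exon bases with a transcript of the neighbouring gene Wdr92, but none of its last exon (chr11:17198259-17200375), from which 3' reads of its coding transcript come. Ppp1ca and Rad9a overlap on opposite strands at their ends, and Rad9a had 221 UMIs in all cells.

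Promoters of 5 of the 9 genes were found among those of RefSeq: Ppp1cc, Ppp1r27, Ppp1r36, Ppp3r1 and Ppp3r2. Ppp1ca, Ppp1r42, Ppp3ca and Ppp3cc had no entry. The 250 bases before the RefSeq start are shown for Ppp3r1, Ppp3r2 and Ppp1r27. Ppp3r1 and Ppp3r2 are the calcineurin B genes, which changed in opposite directions from pachytene to round cells. Ppp1r27 was high in pachytene cells. For Ppp3r1 and Ppp3r2 the RefSeq start lies inside the gene as GENCODE M21 places it, so the last bases of these stretches belong to that gene. Capitals mark the motifs searched: TGACG, part of a cyclic AMP response element, the TATA box letters TATAAA, the CCAAT box by its own letters, and GGGCGG, the GC box. Both strands were searched, and a match on the opposite strand stands as its reverse complement.
Ppp3r1 (GRCm38.p6, chr11:17159048-17159297, plus strand): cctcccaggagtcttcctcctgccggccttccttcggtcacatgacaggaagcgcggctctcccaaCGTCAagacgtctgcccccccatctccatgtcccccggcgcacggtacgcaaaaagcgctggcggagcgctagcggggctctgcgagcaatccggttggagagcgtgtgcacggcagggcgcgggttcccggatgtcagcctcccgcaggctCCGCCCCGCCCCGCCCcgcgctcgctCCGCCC
Ppp3r2 (GRCm38.p6, chr4:49681984-49682233, minus strand): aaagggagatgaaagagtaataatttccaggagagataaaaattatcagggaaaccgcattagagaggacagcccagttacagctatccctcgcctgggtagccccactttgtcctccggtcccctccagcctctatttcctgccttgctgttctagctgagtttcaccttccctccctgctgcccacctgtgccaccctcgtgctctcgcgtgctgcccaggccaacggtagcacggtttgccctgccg
Ppp1r27 (GRCm38.p6, chr11:120551133-120551382, minus strand): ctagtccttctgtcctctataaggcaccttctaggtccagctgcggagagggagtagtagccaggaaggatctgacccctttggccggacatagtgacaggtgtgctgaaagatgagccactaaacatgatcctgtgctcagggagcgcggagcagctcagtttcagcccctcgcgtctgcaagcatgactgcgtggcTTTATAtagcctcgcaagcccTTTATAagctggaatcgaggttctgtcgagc
The Ppp3r1 promoter was rich in G and C (70.8%, with 29 CpG dinucleotides) and held 4 GC boxes and 1 match to TGACG, all on the opposite strand. All 4 GC boxes lay in the part that GENCODE M21 places inside the gene. The Ppp3r2 promoter had 55.6% G and C and 9 CpG and held none of the 4 motifs. The Ppp1r27 promoter had 54.4% G and C and 10 CpG and held TATA box letters on the opposite strand 31 and 52 bases before the start. Over the 32851 promoters of the table the median was 52.4% G and C and 6 CpG, 32.7% held a GC box, 17.8% held TGACG, 12.4% held a TATA box and 33.8% held a CCAAT box. The full element TGACGTCA, which contains TGACG, was found in 1.55% of them and in none of the 5.

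Cells were clustered without the 9 genes and without 64 other genes of the PP1 and calcineurin pathways, and clusters were named from markers. The early spermatocyte-like cluster held 164 cells, the pachytene or later spermatocyte-like cluster 526, the round spermatid-like cluster 450, and 2 elongating or condensing spermatid-like clusters held 193 cells (cluster 5) and 514 cells (cluster 3). A cluster of 687 cells lay between pachytene and round cells. Only 2 of 11 round spermatid markers, Ssxb1 and Ssxb2, were over 1.5 times their level in all cells there, and a name needed 3. Its mean standardised marker level was highest for round spermatids (0.562, against 0.246 for pachytene or later spermatocytes). It carries no cell type name and is called the Ssxb-high cluster after its leading genes. There were also 7 Sertoli-like, 6 spermatogonium-like and 5 Leydig-like cells. No cell barcode was shared between the mice, and every cell had at least 7114 UMIs. Protamine and transition protein genes (Prm1, Prm2, Tnp1, Tnp2) made up a median of 16.5% and 12.3% of the UMIs of elongating or condensing cells in mice 1 and 2 and under 1% in the other germ cells, and CPM values there are shares of a total that includes them.

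Ppp3r2 was the most abundant of the 9 genes in all cells, at 1178 CPM in mouse 1 and 1103 CPM in mouse 2. Ppp1cc followed at 501 and 554 CPM, then Ppp1r42 at 219 and 233 CPM, Ppp3ca at 219 and 202 CPM and Ppp1r36 at 186 and 190 CPM. The order of Ppp1r42 and Ppp3ca is within the difference between the mice. Ppp3cc was at 60.1 and 116 CPM, Ppp1r27 at 68.1 and 41.3 CPM, and these overlap as well. Ppp3r1 (9.58 and 11.6 CPM) and Ppp1ca (2.73 and 2.31 CPM) were the lowest.

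**Figure D1:**
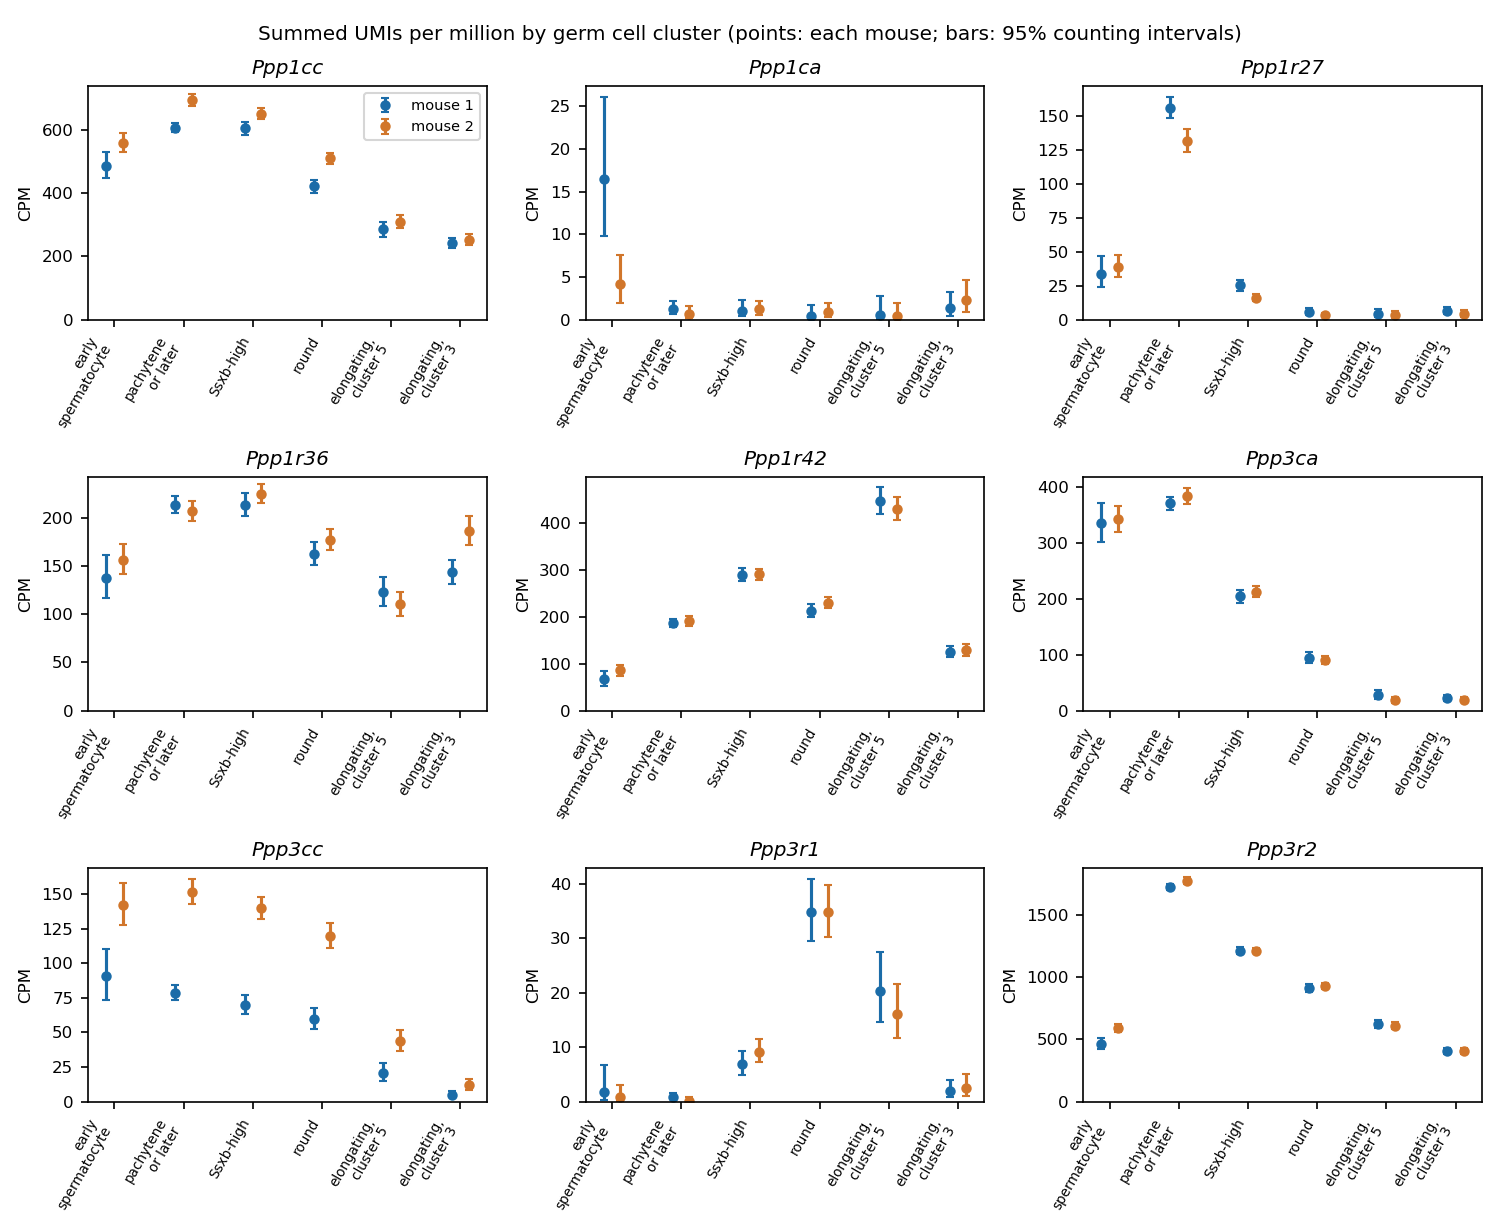
CPM of the 9 subunits (vertical axis of each panel, from 0) in the 6 largest germ cell clusters, from early spermatocyte-like to elongating cells (clusters 5 and 3, whose order is not known), with 1 point for each mouse and exact Poisson 95% intervals, which cover counting error only. Ppp3r1 stood highest in round spermatid-like cells, Ppp1r27 in pachytene cells and Ppp1r42 in cluster 5 of the elongating cells, and Ppp3cc was higher in mouse 2 than in mouse 1 in each cluster.

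Ppp1cc held most PP1 catalytic UMIs in the large germ cell clusters. Ppp1cc stood at 488 and 562 CPM (mouse 1, mouse 2) in early spermatocyte-like cells, 609 and 697 in pachytene or later cells, 606 and 654 in the Ssxb-high cluster, 422 and 512 among round spermatids, and 258 and 280 in the elongating group. The pachytene and Ssxb-high values overlap between the mice, and the elongating values lie below all others. From early to pachytene cells Ppp1cc rose by 0.59 on the log2 scale (SE 0.15, adjusted p = 0.00295); here and below, fits and adjusted p-values are from edgeR's quasi-likelihood test on sums per mouse and cluster, scaled by trimmed mean of M values (TMM), with Benjamini-Hochberg adjustment over all rows tested. Without TMM, on the scale of CPM, that change was 0.31 with an adjusted p of 0.0575.

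The fall of Ppp1cc CPM in spermatids depended on the scale. From round to elongating cells the log2 change was 0.07 with TMM (SE 0.15, adjusted p = 0.738) and -0.80 without it (adjusted p = 4.29e-05). From pachytene to round cells it was -0.16 with TMM (adjusted p = 0.334) and -0.48 without it (adjusted p = 0.00247). At least 1 UMI of Ppp1cc was found in 99.8% of pachytene or later cells and in 92.2% of elongating or condensing cells.

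Ppp1ca was nearly silent from pachytene on. It had 18 and 10 UMIs in early spermatocyte-like cells (16.5 and 4.13 CPM) and 13 and 5 UMIs in pachytene or later cells (1.25 and 0.671 CPM), where it fell by 2.78 on the log2 scale (SE 0.56, adjusted p = 0.000352). In the Ssxb-high, round and elongating cells it lay between 0.464 and 1.35 CPM. In the few cells of other types its share was larger: 31 UMIs in 6 spermatogonium-like cells (474 CPM, 95% interval 322 to 673), 16 UMIs in 7 Sertoli-like cells (189 CPM, 108 to 306) and 15 UMIs in 5 Leydig-like cells (296 CPM, 166 to 488). In all cells Ppp1ca had 145 UMIs, so these few cells held a large part of them. The same clusters had 28, 17 and 4 UMIs of Ppp1cc, and 2, 30 and 6 of Ppp3ca. They had 0, 3 and 0 UMIs of Ppp3cc, and 3, 15 and 5 of Ppp3r1.

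The PP1 regulators followed 3 different courses. Ppp1r27, an ankyrin repeat protein that inhibits PP1, was at 33.9 and 38.8 CPM in early cells, 156 and 132 in pachytene or later cells, 25.1 and 16.0 in the Ssxb-high cluster, 5.57 and 3.29 in round cells and 5.47 and 3.54 in elongating cells. The pachytene values lie above all others in both mice, and 83.7% of the UMIs of the gene came from that cluster, which held 31.0% of all UMIs. Ppp1r27 rose by 2.24 (SE 0.22, adjusted p = 7.73e-08) from early to pachytene cells and fell by 4.75 (SE 0.26, adjusted p = 1.21e-12) from pachytene to round cells. Its further value from round to elongating cells, 0.93 (adjusted p = 0.0358), was 0.07 without TMM (adjusted p = 0.891), and the adjusted p was 0.328 without round replicate 2 and 0.397 without elongating replicate 1.

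Ppp1r36, a PP1 subunit expressed in testis, varied less between groups. It stood at 137 and 157 CPM in early cells, 213 and 207 in pachytene or later cells, 213 and 225 in the Ssxb-high cluster, 162 and 177 in round cells and 136 and 150 in elongating cells. The pachytene and Ssxb-high values overlap, as do the early and elongating values. It rose by 0.78 (SE 0.15, adjusted p = 0.000144) from early to pachytene cells. It rose from round to elongating cells by 0.62 with TMM (SE 0.14, adjusted p = 0.000811), while without TMM the change was -0.25 (adjusted p = 0.0763), and without round replicate 1 the adjusted p was 0.0501.

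Ppp1r42, a leucine-rich repeat protein that binds PP1 and tubulin, reached its highest cluster value in cluster 5 of the elongating cells. It was at 67.8 and 85.5 CPM in early cells, 187 and 191 in pachytene or later cells, 290 and 291 in the Ssxb-high cluster and 213 and 230 in round cells. In the elongating cells it was split by cluster, at 448 and 430 CPM in cluster 5 and 125 and 128 CPM in cluster 3. It rose by 1.55 (SE 0.16, adjusted p = 1.00e-07) from early to pachytene cells. From round to elongating cells it rose by 1.07 with TMM (SE 0.14, adjusted p = 1.85e-06), while without TMM the change was 0.21 (adjusted p = 0.134). It was lower in cluster 3 than in cluster 5 by 1.19 on the log2 scale (log2 change -1.19, SE 0.14, adjusted p = 4.44e-07). The share of cells with at least 1 UMI was 99.5% in cluster 5 and 50.8% in cluster 3, and 90.2% and 33.5% after each cell was thinned to 5000 UMIs.

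Among the 5 large germ cell groups, both calcineurin A subunits were lowest in elongating or condensing cells. Ppp3ca was at 335 and 342 CPM in early cells, 371 and 385 in pachytene or later cells, 205 and 212 in the Ssxb-high cluster, 94.7 and 90.6 in round cells and 24.4 and 18.7 in elongating cells. The mice lie close together at each step, and only the early and pachytene values are near each other. Ppp3ca fell by 0.78 (SE 0.13, adjusted p = 4.53e-05) from pachytene cells to the Ssxb-high cluster, by 0.93 (SE 0.14, adjusted p = 1.34e-05) from there to round cells and by 1.24 (SE 0.16, adjusted p = 9.61e-07) from round to elongating cells. Its rise from early to pachytene cells, 0.44 (adjusted p = 0.0115), was 0.16 without TMM (adjusted p = 0.311) and 0.23 with DESeq2 (adjusted p = 0.171).

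Ppp3cc, the A subunit of the sperm enzyme, changed less up to the round cells than from there to elongating cells in each mouse. In mouse 1 it was at 90.7 CPM in early, 78.7 in pachytene, 70.2 in Ssxb-high, 59.7 in round and 10.6 in elongating cells. In mouse 2 the same groups stood at 142, 152, 140, 120 and 26.9 CPM. The drop to elongating cells is common to both mice, and the level differs between them throughout. Ppp3cc fell from round to elongating cells by 1.40 (SE 0.40, adjusted p = 0.00577). The call was lost with DESeq2, where the change was -1.32 (adjusted p = 0.125), without round replicate 2 (-0.82, adjusted p = 0.106) and without elongating replicate 1 (-0.97, adjusted p = 0.0766). No earlier comparison passed the test (adjusted p 0.691 from early to pachytene and 0.976 from pachytene to round cells). In that fit the difference between the mice is part of the spread (SE 0.37 and 0.36), so it cannot settle small changes within a mouse. With the mouse as a block these changes were 0.26 (adjusted p = 0.088) and -0.05 (adjusted p = 0.728). The fall from round to elongating cells was then 1.41 (adjusted p = 4.48e-20). The block takes the difference in level between the mice out of the spread. With 2 animals, that small p-value does not measure how far animals vary.

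The calcineurin B subunits changed in opposite directions from pachytene to round cells. Ppp3r2, the B subunit of the sperm enzyme, was at 465 and 591 CPM in early cells, 1727 and 1778 in pachytene or later cells, 1214 and 1215 in the Ssxb-high cluster, 913 and 929 in round cells and 486 and 503 in elongating cells. Apart from the early cells, the mice differ by less than any step between the groups. Ppp3r2 rose by 2.0001 on the log2 scale (SE 0.16, adjusted p = 4.23e-09) from early to pachytene cells and fell by 0.61 (SE 0.15, adjusted p = 0.0014) from pachytene to round cells. From round to elongating cells the change was -0.03 with TMM (adjusted p = 0.878) and -0.90 without it (adjusted p = 5.91e-06).

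Ppp3r1, the widespread B subunit, was close to absent from spermatocytes. It had 2 and 2 UMIs in early cells (1.83 and 0.826 CPM) and 9 and 1 UMIs in pachytene or later cells (0.863 and 0.134 CPM). It had 40 and 76 UMIs in the Ssxb-high cluster (6.83 and 9.14 CPM) and 150 and 211 UMIs in round cells (34.8 CPM in each mouse). In elongating cells it was at 20.4 and 16.1 CPM in cluster 5 and 1.94 and 2.55 CPM in cluster 3.

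The round spermatid-like values of Ppp3r1 lie far above the spermatocyte values in both mice. The ratio of CPM in round over pachytene cells was 40.3 in mouse 1 (exact 95% interval 20.7 to 89.9) and 259 in mouse 2 (46.0 to 10279), where the pachytene cells had 1 UMI. Ppp3r1 rose by 6.22 (SE 0.34, adjusted p = 1.06e-12) from pachytene to round cells, and by 3.88 (SE 0.40, adjusted p = 3.93e-08) and 2.34 (SE 0.24, adjusted p = 9.61e-08) in the 2 steps on either side of the Ssxb-high cluster. It fell by 1.12 (SE 0.24, adjusted p = 0.000551) from round to elongating cells, and was lower in cluster 3 than in cluster 5 (-2.41, SE 0.39, adjusted p = 3.10e-05).

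A Ppp3r1 UMI was found in 52.4% of round cells, against 1.71% of pachytene or later cells, whose median depth was alike (19866 and 22017 UMIs per cell in mice 1 and 2, against 22392.5 and 21587.5 in round cells). After thinning to 5000 UMIs the shares were 15.6% and 0.760%. Wdr92, the neighbour that shares exons with Ppp3r1, ran the other way: 24.8 and 16.6 CPM in pachytene or later cells and 1.39 and 0.494 CPM in round cells. The part of shared reads in the low Ppp3r1 count of spermatocytes was not tested.

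Over the 9 genes, the step from early to pachytene or later spermatocyte-like cells had 6 members called higher and 1 lower, where 24.8% of the 15003 rows tested were called higher and 23.5% lower. The 6 were Ppp1cc, Ppp1r27, Ppp1r36, Ppp1r42, Ppp3ca and Ppp3r2, and the 1 was Ppp1ca. Without TMM 4 were called higher and 1 lower, beside 19.2% of rows higher and 30.5% lower. From pachytene to round spermatid-like cells, Ppp1r42 and Ppp3r1 were called higher and Ppp1r27, Ppp3ca and Ppp3r2 lower, beside 36.9% of rows higher and 37.2% lower. The rise of Ppp1r42 in that step was 0.55 with TMM and 0.23 without it (adjusted p = 0.0886), and without TMM 1 member was called higher and 5 lower, beside 33.5% and 44.9% of rows, with Ppp1r36 changing sign from 0.01 to -0.31 (adjusted p = 0.0224).

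From round to elongating or condensing cells, 3 members were called higher (Ppp1r27, Ppp1r36, Ppp1r42) and 3 lower (Ppp3ca, Ppp3cc, Ppp3r1), beside 27.0% of rows higher and 25.9% lower. Without TMM the same edgeR test called 0 higher (0 at an unadjusted p under 0.05), beside 14.5% of rows. It called 5 lower, Ppp3ca, Ppp3cc and Ppp3r1 among them, beside 49.96% of rows. DESeq2 scales by size factors of its own and is not a fit on the scale of CPM. It called 3 higher, Ppp1r27 (1.01), Ppp1r36 (0.71) and Ppp1r42 (1.16), and its share of all rows called was not counted. DESeq2 called Ppp3ca and Ppp3r1 lower, but not Ppp3cc (-1.32, adjusted p = 0.125). With the mouse as a block, Ppp1ca was also called higher (1.63, adjusted p = 0.0428). The 3 calls lower are those that edgeR made both with and without TMM.

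The scale matters because TMM factors ran from 1.55 in early cells of mouse 1 to 0.526 in elongating cells of mouse 1. Leaving TMM out shifted the median log2 change of all rows by -0.24 from early to pachytene, by -0.32 from pachytene to round and by -0.85 from round to elongating cells. The share of all calls that were higher moved from 51.3% to 38.6% in the first of these steps and from 51.1% to 22.5% in the last, and from 49.8% to 42.8% in the middle one. The median log2 change of the 9 members was 0.59, -0.16 and 0.07 in these steps with TMM, beside medians of 0.00, -0.10 and -0.03 over all rows.

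**Figure D2:**
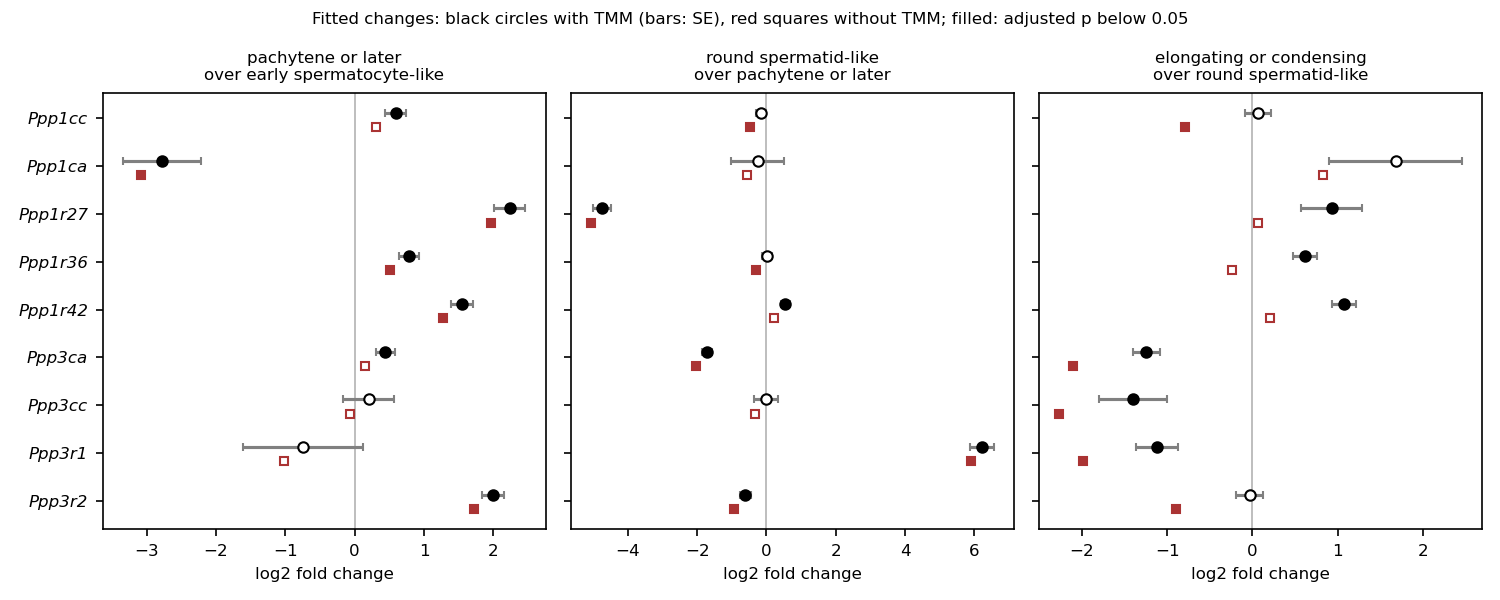
Log2 fold change (horizontal axis) of the 9 subunits in 3 steps of differentiation, with TMM (black circles, bars are 1 SE) and without it (red squares); filled symbols had an adjusted p below 0.05. The largest changes, such as 6.22 for Ppp3r1 and -4.75 for Ppp1r27 from pachytene to round cells, lay on the same side of 0 on both scales, while Ppp1cc and Ppp1r36 changed side from round to elongating cells.

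Splitting the steps further placed the changes more closely. From pachytene cells to the Ssxb-high cluster, Ppp1r42 and Ppp3r1 were called higher and Ppp1r27, Ppp3ca and Ppp3r2 lower, beside 31.7% of rows higher and 28.9% lower. The Ppp3r2 call in that step (-0.45, SE 0.15, adjusted p = 0.0159) was lost when any 1 of the 4 sums was left out (adjusted p 0.0648 to 0.0822). From the Ssxb-high cluster to round cells Ppp3r1 was called higher and Ppp1r27 and Ppp3ca lower, beside 24.7% and 19.4% of rows, and without TMM 7 members were called in place of 3, 1 higher and 6 lower, beside 20.8% of rows higher and 30.7% lower. Ppp1r27 thus fell in both steps, by 2.75 (SE 0.21, adjusted p = 4.18e-10) and 1.995 (SE 0.29, adjusted p = 8.58e-06). In cluster 3 against cluster 5 of the elongating cells, Ppp1r36 was called higher (1.11, SE 0.16, adjusted p = 4.58e-06). Ppp1r42, Ppp3cc and Ppp3r1 were called lower, beside 16.2% of rows higher and 23.5% lower. Without TMM 1 member was called higher and 4 lower, beside 6.03% of rows higher and 36.9% lower. Ppp1r36 was then at 0.50 (adjusted p = 0.00628), and Ppp3r2 went from -0.003 to -0.61 (adjusted p = 0.000437). Ppp1cc and Ppp3ca changed sign, with no call on either scale. With the mouse as a block 5 members were called higher and 3 lower, and the share of all rows called in that fit was not counted. The Ppp3cc call in that comparison (-1.38, SE 0.54, adjusted p = 0.046) was lost with DESeq2 (adjusted p = 0.145), without cluster 3 replicate 1 (0.325) and without cluster 5 replicate 2 (0.505).

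When 2534 germ cells were set in diffusion order and cut into 20 equal bins, most members had alike courses in both mice, while the Ppp3cc lines stayed apart. Ppp1r27 rose from 25.5 and 23.4 CPM in bin 1 to its highest bin, 167 CPM in bin 3 of mouse 1 and 153 CPM in bin 6 of mouse 2, and was at 34.1 and 25.9 CPM in bin 7. Bins 2 to 5 were mostly pachytene cells, bin 6 was mostly Ssxb-high cells, and bin 7 was all Ssxb-high cells in both mice. The top bin of Ppp3r2 was bin 5, where mouse 1 had 1832 CPM (80.0 UMIs per cell) and mouse 2 had 1869 CPM (84.1).

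Ppp3r1 had a peak that no other member shared. It was at or below 2.64 CPM in bins 1 to 6 and reached 45.8 CPM in bin 14 of mouse 1 and 38.5 CPM in bin 13 of mouse 2, bins made up almost wholly of round cells. In bin 15, where elongating cells become the most frequent, it was at 16.4 and 13.9 CPM. Ppp3ca over the same bins went from 379 and 402 CPM in bin 5 to 64.7 and 69.4 CPM in bin 14 and 25.01 and 31.8 CPM in bin 15. Bins 15 to 20 did not separate clusters 5 and 3, whose median ranks were 87.9% and 85.5% of the order, so the late steps are better read from the clusters.

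**Figure D3:**
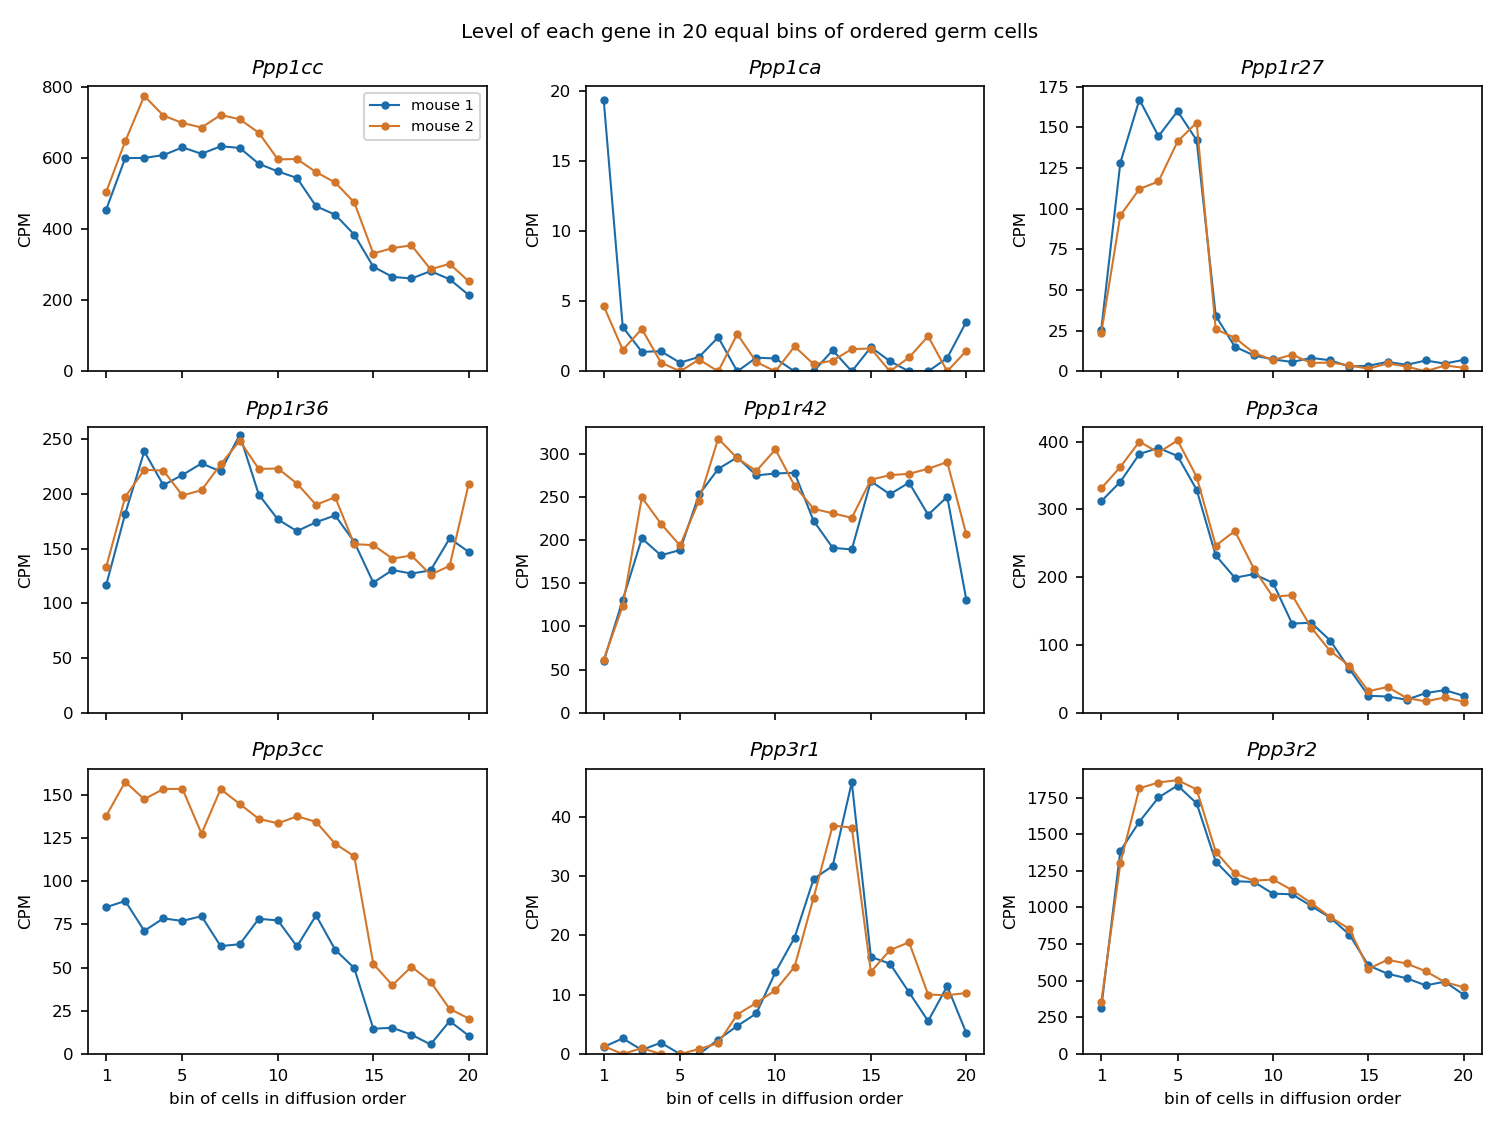
CPM of each subunit (vertical axes, from 0) over 20 equal bins of germ cells in diffusion order (horizontal axes), with 1 line for each mouse. Ppp1r27 is high in bins 2 to 6 and low from bin 7 on, Ppp3r1 peaks in bins 13 and 14, and Ppp3cc of mouse 2 runs above that of mouse 1 in every bin.

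Within each enzyme, paralogs took different shares of the UMIs. Of Ppp1cc and Ppp1ca together, Ppp1cc made up 96.7% (exact 95% interval 94.9 to 98.1) and 99.3% (98.7 to 99.6) in early cells and between 99.5% and 99.9% in the 4 later groups. In the spermatogonium-like cells it was 28 of 59 UMIs. With Ppp1cb, the remaining PP1 catalytic gene, counted in, Ppp1cc still made up 83.5% and 89.01% in early cells and 98.3% and 98.4% in pachytene or later cells. Ppp1cb itself fell by 2.54 (SE 0.21, adjusted p = 4.67e-09) from early to pachytene cells, from 79.7 and 65.2 CPM to 9.40 and 10.9 CPM.

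The calcineurin A share moved toward Ppp3cc as Ppp3ca fell. Of Ppp3cc and Ppp3ca together, Ppp3cc accounted for 17.5% (exact 95% interval 16.4 to 18.6) and 28.3% (26.9 to 29.7) in pachytene or later cells of mice 1 and 2, 25.5% and 39.7% in the Ssxb-high cluster, 38.6% (34.9 to 42.5) and 57.0% (54.2 to 59.7) in round cells and 42.4% (32.5 to 52.8) and 70.5% (63.1 to 77.2) in cluster 5 of the elongating cells. In cluster 3 it was 18.2% and 38.8%, on 99 and 98 UMIs. The order of these groups is the same in both mice, and the intervals of the mice do not overlap in any of these clusters. Ppp3cb added between 0.611% and 2.94% of the calcineurin A UMIs in the 5 germ cell groups.

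Ppp3r2 made up nearly all calcineurin B counts. Its share of Ppp3r2 and Ppp3r1 together was 99.95% and 99.99% in pachytene or later cells, 96.3% (95.7 to 96.9) and 96.4% (95.9 to 96.9) in round cells and 96.8% and 97.4% in cluster 5. So over all round cells, the germ cell group with the most Ppp3r1, Ppp3r2 still had 26.2 and 26.7 UMIs for each UMI of Ppp3r1. In the 7 Sertoli-like cells both genes had 15 UMIs. Those cells also had a summed level of elongating spermatid markers of 7443 CPM over all 11 markers, against 144234 CPM in the elongating cells, and the part of free RNA in their Ppp3r2 counts was not tested.

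**Figure D4:**
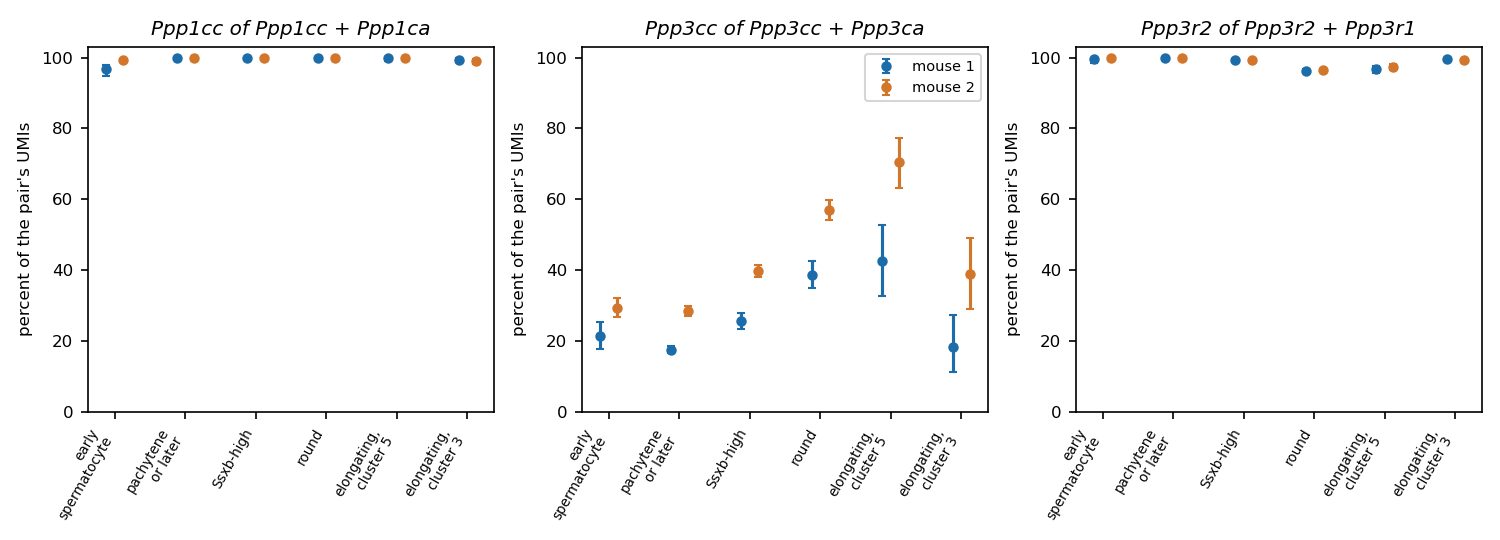
Share of the first gene in the summed UMIs of a paralog pair (vertical axes, 0 to 100%) in 6 germ cell clusters, with 1 point for each mouse and exact binomial 95% intervals for counting error. Ppp1cc and Ppp3r2 stayed above 96% throughout. From pachytene cells to cluster 5, Ppp3cc ran from 17.5% to 42.4% in mouse 1 and from 28.3% to 70.5% in mouse 2. It was higher in mouse 2 in each cluster.

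Ppp3cc was higher in mouse 2 in all 5 groups. Its CPM in mouse 2 was 1.57 times that in mouse 1 in early, 1.93 in pachytene or later, 1.99 in Ssxb-high, 2.01 in round and 2.53 times in elongating cells. A small constant was added to each count before ratios between the mice were taken. A set of 4646 rows had at least 50 UMIs, over both mice, in each of the 5 groups. Of these, 21 (0.452%) were at least 1.5 times higher in mouse 2 in all 5 groups and 9 (0.194%) were so in mouse 1. For the other members with 50 UMIs in every group (Ppp1cc, Ppp1r36, Ppp1r42, Ppp3ca and Ppp3r2), the ratio lay between 0.768 and 1.27. Ppp1r27 missed that cut with 44 UMIs over both mice in round cells. It was lower in mouse 2 in 4 of the 5 groups. Its ratio was 0.843 in pachytene or later, 0.637 in Ssxb-high (147 and 133 UMIs), 0.594 in round (24 and 20 UMIs) and 0.651 in elongating cells (31 and 21 UMIs). In early cells it was 1.136. With 1 animal on each side no test of this difference was possible, and the animal, its library and its preparation cannot be told apart.

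**Figure D5:**
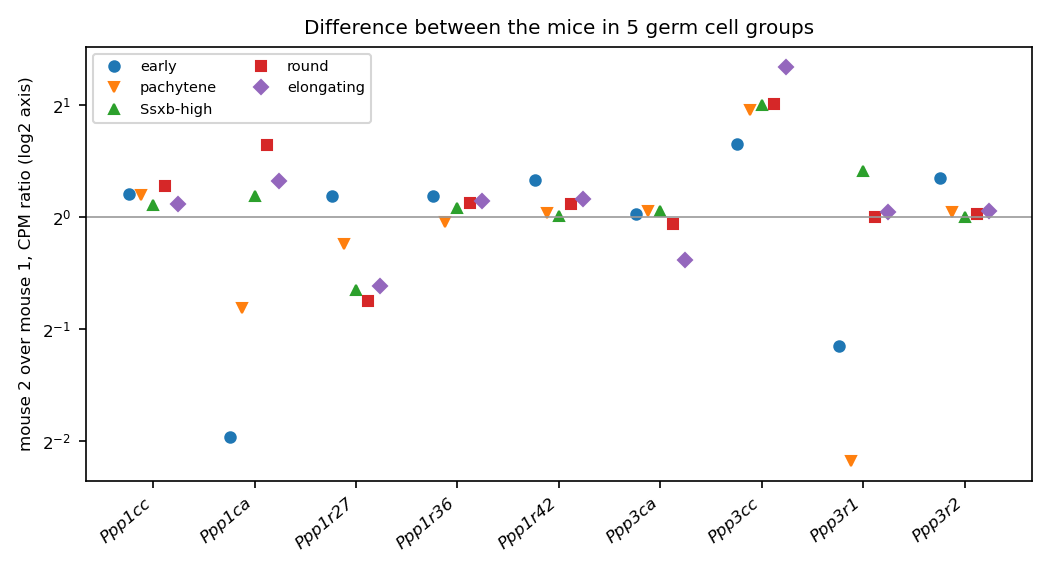
Ratio of CPM in mouse 2 over mouse 1 (vertical axis, log2 scale), with a small constant added to each count, for each subunit in 5 germ cell groups. The Ppp3cc ratios lie between 1.57 and 2.53, and those of Ppp1r27 between 0.594 and 1.136; the scattered ratios of Ppp1ca and Ppp3r1 in spermatocytes rest on 1 to 18 UMIs in each mouse.

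The 64 other genes of the list were PP1 inhibitors and regulators, partners of calcineurin, the NFAT transcription factors that calcineurin dephosphorylates, and the GSK3 kinases that act beside PP1 in sperm. Of these, 45 had enough counts to be tested. From early to pachytene or later cells 13 were called higher and 13 lower (median log2 change -0.21), where 24.8% of all rows were called higher and 23.5% lower, and without TMM 10 were called higher and 21 lower (19.2% and 30.5% of all rows). By group, 4 and 1 of the 8 PP1 inhibitors and core regulators tested were called higher and lower, 5 and 6 of 22 other PP1 regulators, 4 and 3 of 10 calcineurin partners, 0 and 2 of 3 NFAT factors and 0 and 1 of 2 GSK3 kinases. The largest rises were those of Ppp1r1c, an inhibitor of PP1 (5.50 and 10.7 CPM to 71.7 and 61.0 CPM; 3.15, SE 0.26), and Ppp1r9b, the PP1 scaffold spinophilin (3.05, SE 0.30). The largest falls were those of Nfatc3 (-3.08, SE 0.47), Ppp1r12b, a myosin phosphatase targeting subunit (-2.66, SE 0.30), Ppp1r15a, the stress-induced PP1 subunit (-2.58, SE 0.75, on 3 and 9 UMIs in early cells), and Cabin1, a calcineurin inhibitor (-2.55, SE 0.22).

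From pachytene to round cells 12 of the 45 were called higher and 22 lower (median -0.85), beside 36.9% and 37.2% of all rows, and without TMM 7 were called higher and 24 lower, beside 33.5% and 44.9%. Phactr1, a PP1 and actin binding protein, rose from 6.91 and 6.71 CPM to 91.7 and 85.6 CPM (4.01, SE 0.17), and Gsk3b rose from 23.2 and 25.1 CPM to 217 and 243 CPM (3.58, SE 0.16). Ppp1r32 rose by 2.71 (SE 0.17) to 285 and 327 CPM, and Nfatc1 by 2.92 (SE 0.91) on 3 and 9 UMIs in round cells. Calm2, which encodes calmodulin, the activator of calcineurin, fell by 3.81 (SE 0.20), from 1892 and 1758 CPM to 114 and 94.2 CPM. Phactr4 (-4.14, on 0 and 4 UMIs in round cells), Ppp1r8 (-3.32, on 4 and 4) and Ppp1r9b (-3.21, on 13 and 15) also fell. Ppp3cb fell by 1.45 (SE 0.37, adjusted p = 0.00143), on 12 and 8 UMIs in round cells.

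From round to elongating cells 18 were called higher and 10 lower with TMM (median 0.31), beside 27.0% and 25.9% of all rows, and 8 higher and 18 lower without it, beside 14.5% and 49.96%. Ppp1r18 rose by 3.17 (SE 0.35), from 1.86 and 1.65 CPM to 7.94 and 9.43 CPM, and by 2.31 without TMM. Ppp1r14a (2.96, SE 0.46), Ppp1r14c (3.03, SE 0.61) and Nfatc1 (2.86, SE 0.53) rose on 2 to 31 UMIs in each mouse. Gsk3a fell by 2.23 (SE 0.55), on 4 and 1 UMIs in elongating cells, and Ppp1r21 by 2.67 (SE 0.81), on 1 and 1 there. Both were called lower without TMM as well.

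The genes whose course was most like that of each member were found by Pearson's r of log2(CPM + 10) over 40 points, the 20 bins of each mouse, among 7986 rows with at least 500 UMIs. These points share libraries and cells, so r is a description. The nearest gene was Usp1 for Ppp1cc (0.985), Gm43352 for Ppp1r27 (0.982), Arl4a for Ppp1r36 (0.912), Bag5 for Ppp1r42 (0.928), H2afz for Ppp3ca (0.991), Ubb for Ppp3cc (0.955), Cpa6 for Ppp3r1 (0.975) and Galntl6 for Ppp3r2 (0.986). Ppp1ca, with the fewest counts, had the weakest nearest gene, Ndufa1 (0.806). Between members, the highest r was that of Ppp1cc and Ppp3ca (0.927), the A and B subunits of the sperm enzyme Ppp3cc and Ppp3r2 had 0.662, and the lowest was that of Ppp1r27 and Ppp3r1 (-0.765). The points of both mice were pooled, so the difference in Ppp3cc level between the mice enters each r of Ppp3cc beside its course.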

How the data were processed

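The authors aligned and counted reads with Cell Ranger 2.0.0 (after bcl2fastq 2.17.1.14) against repeat-masked GRCm38 with Ensembl annotation and added repeat sequences, downsampled the deeper library and deposited the UMI counts of both mice as a single sparse table; barcode endings gave the mouse. The members and lists were chosen with earlier results of these data known. Cells were clustered by K-means (K = 9, 10 principal components, seed 42; scikit-learn 1.9.0) without the 73 member and list genes, and named from marker lists. The 25 doublets called (0.980% of cells) were kept, and left out in an alternative. Counts were summed per mouse and cluster with at least 20 cells in each mouse, and CPM is the share of a sum's UMIs scaled in the usual way. Tests were edgeR 4.0.16 quasi-likelihood fits with TMM over all sums, with DESeq2 1.42.0 as an alternative, at an adjusted p of 0.05. The self-test on simulated data was run first. Sums of 1 mouse come from the same animal; correlations of the difference between mice across clusters were 0.0281 to 0.202 over 15003 rows. The fit did not use this pairing, and p-values rest on 2 animals. Comparisons with the Ssxb-high cluster and between clusters 5 and 3 were added after clusters and levels were seen. Cells were ordered by diffusion pseudotime (scanpy 1.11.5, 30 neighbours); 15 neighbours had been tried first, and 30 were chosen after member values at 15 had been seen, since classes overlapped less. All members were named; list genes were named where called with a log2 change of at least 2, at most 4 per direction and step, with Ppp1cb and Ppp3cb. Intervals are exact and cover counting error only. Annotation was GENCODE M21 and RefSeq GRCm38.p6.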

Additional observations from a re-analysis of the deposited data

How the results depend on the processing

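Each fit was repeated with DESeq2, its size factors, no TMM, no gene filter, the mouse as a block, protamine and transition genes left out, doublets left out, other clusterings and each sum left out, which leaves a lone sample assumed to vary like the other groups. Under Leiden clustering 1683 of 2552 cells kept their class. With K = 10 all 2552 cells kept it, so the sums were the same and these repeats could not change a result. With the members kept in the clustering 2549 of 2552 cells kept their class, so these repeats tested little. With seed 1 the number was 2519. Leiden clusters gave no value for the 3 added comparisons, and clusters 5 and 3 were compared with DESeq2, no TMM, the block and sums left out only. Of 720 repeated member changes, 677 kept their direction and side of the threshold, or were called in neither fit, 21 lost their call, 19 gained one and 3 reversed. The 677 include all repeats with K = 10, which were bound to be kept, so their share of 720 overstates how stable the results were. The 3 reversals came without TMM: Ppp1r36 from pachytene to round cells (-0.31) and Ppp1r36 (-0.25) and Ppp1cc (-0.80) from round to elongating cells, by construction a change of scale. Without TMM, 1 member was called higher from pachytene to round cells, 0 from round to elongating cells (by edgeR; Ppp1r42 and Ppp1r27 stayed above 0), and 7 were called from the Ssxb-high cluster to round cells. In cluster 3 against cluster 5, 8 members were called (5 higher) with the replicate block and 4 were called higher with DESeq2; with 1 sum left out, 1 to 2 were called higher, with 2 without cluster 3 replicate 2 or cluster 5 replicate 1. For these fits of clusters 3 and 5 the share of all rows called was not counted, and the cause of these changes was not tested. Besides these and the call of Ppp1ca gained from round to elongating cells, the block changed no call. The call of Ppp3r2 from pachytene cells to the Ssxb-high cluster (-0.45) had an adjusted p of 0.0648 to 0.0822 with any 1 sum left out. With clusters 5 and 3 pooled, 7 of 9 members were highest in pachytene or later cells by mean UMIs per cell, against 4 by CPM. Those cells had the most UMIs per cell of all genes, a mean of 33959.6 and 34035.9 in mice 1 and 2. Round cells had 22668.9 and 23352.4. Mean UMIs per cell therefore favour pachytene or later cells for any gene, and the share of all rows highest there was not counted. Ppp1r42 was among the 7, although its CPM was highest in cluster 5. Mean UMIs per cell were not compared with clusters 5 and 3 kept apart. Low counts limit Ppp1ca and, in spermatocytes, Ppp3r1.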
